A study of Mus musculus with 78 samples.

Results

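Genes for subunits of the receptors for glutamate and gamma-aminobutyric acid (GABA) were followed in striatal RNA of C57BL/6J mice given methamphetamine, heroin or saline. Members were all genes whose symbol on the array platform begins with Gria, Grik, Grin or Grm and a number, with Gabra, Gabrb, Gabrd or Gabrg, or with Gabbr. The rule matched 32 of the 19057 genes with a symbol of their own, without use of any measured value. There were 4 AMPA, 5 kainate, 6 NMDA and 6 metabotropic glutamate receptor subunits, and 9 GABA-A and 2 GABA-B receptor subunits. Each gene was represented by its probe with the highest mean over all arrays. The study set 2 drugs against saline through 12 days of treatment and after it, on 78 Illumina BeadChip arrays of whole striatum. Methamphetamine was raised over the treatment to 8 mg/kg, from a first dose of 2 mg/kg, and heroin to 40 mg/kg, from a first dose of 10 mg/kg. All 3 agents were injected into the peritoneum on 12 days, with 2 injections per day. Tissue was taken on days 1, 3, 6 and 12 of treatment, and in withdrawal on days that the labels number 13, 15, 18 and 24. Every agent and day had 3 arrays, and 6 further arrays came from naive mice. The labels do not say whether replicate arrays came from separate animals or from pools, so the p-values measure the spread between these samples, which may be partly technical.

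Glutamate is the transmitter of the cortical and thalamic axons that excite the striatum, and GABA is the transmitter of its own output cells, the medium spiny neurons. AMPA receptors carry the fast excitatory current, NMDA receptors admit calcium and take part in synaptic plasticity, and kainate receptors act on both sides of the synapse. Metabotropic glutamate receptors signal through G proteins. GABA-A receptors are chloride channels, and GABA-B receptors are G protein coupled. In whole tissue, fewer cells of a type and less RNA per cell of that type cannot be told apart.

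A library check comes before the comparisons, because the 3 methamphetamine arrays of treatment day 1 stood apart from the other 75. They carried markers of another brain region, the hippocampus. The summed intensity of 10 hippocampal markers was 17994 to 28228 on these 3 arrays, against 7333 to 8349 on the saline arrays of day 1 and 6318 to 9890 over the other 75 arrays. Conversely, the sum of 14 medium spiny neuron markers, among them the dopamine receptor genes Drd1 and Drd2, was 25835 to 114924 on these arrays, against 147248 to 161583 on the saline arrays of day 1 and 93292 to 187739 over the other 75 arrays. The hippocampal sums of all 3 arrays lay above those of the other 75, whereas the highest of their 3 medium spiny neuron sums lay inside the range of the others. Markers of cortical excitatory neurons summed to 23832 to 34377 on these arrays, against 13391 to 18320 on the saline arrays of day 1 and 8759 to 29171 over the other 75. No marker is listed at 0 in intensity data. Array medians were 95 to 184 intensity units, the 95th percentile was 22.1 to 45.2 times the 5th, and the number of arrays limits the precision. The methamphetamine arrays of day 1 are therefore called the arrays labelled methamphetamine day 1, and treatment results are given with and without them.

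Promoter sequences from RefSeq (build GRCm38.p6) are shown for members that passed a test below, since several of them were called together on the arrays labelled methamphetamine day 1. The table held 23 of the 32 members and 3 of the 8 that were called in at least 1 comparison, Gabrb1, Grik4 and Grm8. Each window is the 250 bases before a transcription start, 5′ to 3′ on the strand of the gene, and capitals mark a GC box (GGGCGG, the site bound by Sp1) or the palindromic NRF1 motif, searched on both strands. The windows are chr9:42944372-42944621 on the minus strand for Grik4, chr5:71657671-71657920 and chr5:71699682-71699931 on the plus strand for Gabrb1 starts a and b, and chr6:28135147-28135396 on the minus strand for the most upstream of the 3 listed starts of Grm8.
Grik4: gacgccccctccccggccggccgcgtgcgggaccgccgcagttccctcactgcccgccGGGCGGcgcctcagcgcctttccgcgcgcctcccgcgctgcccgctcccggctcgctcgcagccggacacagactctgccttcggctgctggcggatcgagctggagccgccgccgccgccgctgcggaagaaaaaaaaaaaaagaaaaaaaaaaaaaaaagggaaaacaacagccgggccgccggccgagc
Gabrb1 start a: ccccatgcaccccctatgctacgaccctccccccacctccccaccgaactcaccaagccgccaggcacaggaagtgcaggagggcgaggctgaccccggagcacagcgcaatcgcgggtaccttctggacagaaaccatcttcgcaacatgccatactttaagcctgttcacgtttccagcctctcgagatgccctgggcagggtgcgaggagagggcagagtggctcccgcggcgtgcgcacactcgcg
Gabrb1 start b: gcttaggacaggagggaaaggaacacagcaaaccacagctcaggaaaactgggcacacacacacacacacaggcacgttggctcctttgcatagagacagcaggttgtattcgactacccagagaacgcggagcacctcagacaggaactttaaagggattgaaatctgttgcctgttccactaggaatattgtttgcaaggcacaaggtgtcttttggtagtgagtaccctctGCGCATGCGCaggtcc
Grm8: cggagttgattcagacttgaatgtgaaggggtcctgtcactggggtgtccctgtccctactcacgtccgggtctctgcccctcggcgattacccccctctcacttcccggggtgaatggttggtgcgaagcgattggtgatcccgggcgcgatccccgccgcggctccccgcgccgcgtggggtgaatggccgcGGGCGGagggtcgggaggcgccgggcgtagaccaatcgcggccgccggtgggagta
The Grik4 window and the printed Grm8 window each held 1 GC box, a motif present in 32.7% of the 32851 windows in the table and in 13 of the 30 windows of members. The other 2 Grm8 windows held 0. Gabrb1 start a held neither motif, and start b held the NRF1 motif, found in 0.782% of all windows. The cyclic AMP response element TGACGTCA occurred in 1.55% of all windows and in 0 of the 30 windows of members. Gabrb1 start a lies 387 bases from the start of Gabra4, another GABA-A subunit gene on the opposite strand. These matches are descriptions of letters and not of binding.

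Baseline levels in striatum are given on the log2 intensity scale, for each gene on its own, because levels of different probes are not comparable. Gria2, the AMPA subunit that makes the channel nearly impermeable to calcium, had 13.05 as its lowest, 13.22 as its median and 13.51 as its highest level over 24 saline arrays. Gria1, the AMPA subunit most often linked to drug-evoked plasticity, ranged from 12.56 to 12.91 in saline with a median of 12.75. Grin2b, an NMDA subunit that binds glutamate, ranged from 11.84 to 12.30 in saline. All of these ranges were narrower than 0.5 log2 units. Gria4, an AMPA subunit, varied more, with saline levels of 7.30 to 8.69 and a median of 8.21. Grm5, the metabotropic receptor coupled to phospholipase C, ranged from 9.95 to 10.48 in saline. Gabrd, the delta subunit of GABA-A receptors outside the synapse, had a saline median of 11.34 and a lowest value of 10.82. That lowest value came from saline withdrawal day 15 replicate 2, which also had the lowest medium spiny neuron score of the 75 arrays, -0.83. A score is the mean over a marker list of each gene's log2 level minus its median over all arrays.

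Further saline levels, each on the scale of its own probe, cover the other members by family. The AMPA subunit Gria3 had 11.49 to 12.37 with a median of 12.00. Among kainate subunits Grik1 had 7.99 to 8.56 with a median of 8.24, Grik2 9.31 to 9.88 with a median of 9.61, Grik3 6.66 to 7.06 with a median of 6.82, Grik4 7.50 to 8.03 with a median of 7.79 and Grik5 9.80 to 10.43 with a median of 10.21. Grik3 was the one kainate subunit that stayed near or below the array median. Among NMDA subunits Grin2a had 7.78 to 8.62 with a median of 8.16, Grin2c 7.09 to 7.88 with a median of 7.63 and Grin2d 6.27 to 6.81 with a median of 6.55. The glycine-binding subunits Grin3a and Grin3b had 10.72 to 11.39 with a median of 11.07 and 6.75 to 7.16 with a median of 6.95. Among metabotropic receptors Grm3 had 6.49 to 6.86 with a median of 6.67, Grm4 10.13 to 11.30 with a median of 10.98, Grm6, known mainly from retinal bipolar cells, 6.32 to 6.83 with a median of 6.55, Grm7 10.71 to 11.31 with a median of 10.91 and Grm8 7.50 to 8.17 with a median of 7.68. Grm7, like Grm4 and Grm8, encodes a receptor of nerve endings that lowers transmitter release. Among GABA-A subunits Gabra3 had 7.46 to 8.89 with a median of 8.16, Gabra4 6.61 to 7.10 with a median of 6.80, Gabra5 6.29 to 6.77 with a median of 6.47 and Gabrb1 11.19 to 11.82 with a median of 11.56. Gabrb2, Gabrg1 and Gabrg3 had 7.72 to 8.32 with a median of 7.93, 7.63 to 8.43 with a median of 8.02 and 8.62 to 9.31 on the 24 saline arrays. Of the GABA-B subunits Gabbr1 had 9.10 to 9.78 with a median of 9.55 and Gabbr2 6.73 to 7.16 with a median of 6.93.

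A gene was tested if any of the 25 groups had its probe above the array median, 6.96 on the log2 scale, on every array of the group. Of the members 25 passed this filter, and 23 of them did so in all 25 groups. Grin3b, a glycine-binding NMDA subunit, passed through 5 groups and Gabbr2, the GABA-B subunit that couples to the G protein, through 2, the arrays labelled methamphetamine day 1 and saline treatment day 6. No test was made for Gabra4, Gabra5, Gabra6, Grik3, Grin2d, Grm3 or Grm6. For Gabra6, the GABA-A subunit known mainly from cerebellar granule cells, saline levels were 6.17 to 6.64. On average over arrays, the untested members' probes lay between the 11.1th percentile, for Gabra6, and the 42.4th, for Gabra4, so their response was not measured here.

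The first comparison asked which subunits differ under methamphetamine during treatment. Over days 1, 3, 6 and 12, with 12 arrays per group, Gria1 and Grin2a were higher and Gabrd and Grm4 lower than in saline. Grin2a encodes an NMDA subunit of mature synapses, and Grm4 a metabotropic receptor that lowers transmitter release. Fitted log2 differences with their SE were 0.14 ± 0.03 for Gria1 (limma adjusted p = 0.0113) and 0.18 ± 0.05 for Grin2a (limma adjusted p = 0.0314). Gabrd fell by 0.29 ± 0.08 (limma adjusted p = 0.0199). Grm4 fell by 0.30 ± 0.07 (limma adjusted p = 0.00325). Of all 12361 genes tested, 2.48% were called higher and 2.14% lower, beside 2 higher and 2 lower of 25 members. The group ranges overlapped for all 4 genes. Grm4 spanned 9.61 to 11.14 in methamphetamine with a median of 10.90, against 10.71 to 11.30 in saline with a median of 11.02. Gabrd spanned 9.45 to 11.58 with a median of 11.30 under methamphetamine, against 11.19 to 11.60 with a median of 11.32 in saline. The medians of each gene lay close together, and the low ends came from day 1. The Grin2a call was kept in 14 of 24 fits that left out 1 array, with limma adjusted p of 0.0506 to 0.0822 in the rest, and the Gabrd call in 22 of 24, all but those without methamphetamine day 1 replicate 3 (-0.20) or saline day 12 replicate 2 (-0.25). The fits on lot 2 of the slides alone, a set told apart by slide barcodes, called 1 of the 25 members. Those on only the groups compared or on the deposited log2 values called 0.

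Without the arrays labelled methamphetamine day 1, no receptor subunit passed the test. On treatment days 3, 6 and 12, with 9 arrays per group, 0 of 25 members were called at an adjusted p under 0.05, where 0.34% of all genes were. At an unadjusted p under 0.05 there were 2 members, against 9.08% of all genes. The 4 genes called over all 4 days had differences of 0.02 ± 0.04 (Gria1), -0.04 ± 0.07 (Grin2a), -0.11 ± 0.07 (Gabrd) and -0.07 ± 0.07 (Grm4). The 95% intervals of all 25 tested members lay within 0.5 log2 units of 0, and those of 21 within 0.25. Grik5, a kainate subunit that raises the affinity of the channel for glutamate, had the largest positive difference, 0.21 ± 0.07 (limma adjusted p = 0.297). It ranged from 10.21 to 10.56 under methamphetamine, with a median of 10.38, against 9.93 to 10.30 in saline, with a median of 10.21. The ranges overlapped between 10.21 and 10.30, and the difference was positive on all 5 slides that held both groups. Grin2c, an NMDA subunit, differed by 0.13 ± 0.07, Grik1, a kainate subunit, by -0.13 ± 0.07 and Gabbr2 by -0.12 ± 0.06, with limma adjusted p of 0.525 to 0.641. Gabbr2 passed the filter only through saline treatment day 6, a reference group here, and the arrays labelled methamphetamine day 1, left out here. The filter thus favoured a negative sign for Gabbr2.

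Probes of the same gene did not always agree. Of the tested members 12 had more than 1 probe past the filter and 13 had only 1. The other Grik5 probe had a difference of 0.30 ± 0.07 on methamphetamine days 3, 6 and 12 (limma adjusted p = 0.0471 over 19947 probes). In heroin treatment it differed by 0.21 ± 0.05 (limma adjusted p = 0.0311). The brighter Grik5 probe was called in neither comparison. Both comparisons use the saline arrays of days 3, 6 and 12, so their values are not independent. All 4 Gria1 probes and both Gabrd probes were called on day 1, whereas the second Grm4 probe differed by -0.35 ± 0.18 there (limma adjusted p = 0.319), against -1.04 for the first. Which probe follows the whole gene was not tested.

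On treatment day 1 alone 7 subunits passed the test, on arrays with hippocampal markers. Of 25 members 5 were higher and 2 lower on the 3 arrays labelled methamphetamine day 1 than on 3 saline arrays, where 3.36% of all genes were called higher and 3.87% lower. Grin2a stood at 9.01, 8.47 and 9.06 on the arrays labelled methamphetamine day 1, against 8.23, 8.12 and 8.17 on saline arrays. The fitted difference, which takes slides into account, was 0.86 ± 0.14, a 1.82-fold higher signal (limma adjusted p = 1.75e-05). No slide held both groups, so the fitted differences of day 1 link them through arrays of other groups. Gria1 stood at 13.14, 13.03 and 13.52, against 12.83, 12.85 and 12.66 in saline, a difference of 0.51 ± 0.09 (limma adjusted p = 0.000204). For Grin2a and Gria1 every array labelled methamphetamine day 1 was above every saline array. Grin2b stood at 12.43, 12.45 and 12.64, against 12.14, 12.16 and 12.23 in saline, a difference of 0.36 ± 0.09 (limma adjusted p = 0.00665). Grik4, a kainate subunit known for its strong presence in the CA3 field of the hippocampus, stood at 8.12, 8.30 and 8.88, against 7.78, 7.91 and 7.82 in saline. Its difference was 0.59 ± 0.16 (limma adjusted p = 0.0126). Gabrb1, the beta 1 subunit of GABA-A receptors, stood at 11.77, 11.70 and 12.27, against 11.36, 11.58 and 11.33 in saline, a difference of 0.41 ± 0.11 (limma adjusted p = 0.0109).

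Both subunits that fell on day 1 did so by amounts that differed widely between the 3 arrays. Grm4 stood at 9.96, 10.68 and 9.61 on the arrays labelled methamphetamine day 1, against 11.16, 11.02 and 11.18 on saline arrays. It fell by 1.04 ± 0.17, a 2.06-fold lower signal (limma adjusted p = 5.26e-05). Gabrd stood at 10.38, 10.76 and 9.45, against 11.35, 11.19 and 11.21 in saline, and fell by 0.90 ± 0.21 (limma adjusted p = 0.00325). Replicate 3 had the lowest Grm4 and Gabrd, the highest Gria1, Grin2a, Grin2b, Grik4 and Gabrb1, the highest hippocampal score (1.75) and the lowest medium spiny neuron score (-3.18). Without that array 3 members were called, Gria1 at 0.41, Grin2a at 0.77 and Grm4 at -0.76, and Gabrd had a difference of -0.45 (limma adjusted p = 0.182). Grin2b (0.25), Grik4 (0.35) and Gabrb1 (0.25) were not called without it either, with limma adjusted p of 0.172 to 0.317. Groups did not overlap for 8 of 25 members, against 22.5% of all genes. Beside these values, 9 of 10 hippocampal markers rose on the same arrays, with 3.66 ± 0.30 for C1ql2 and 2.42 ± 0.18 for Lct, and 13 of 14 medium spiny neuron markers fell, with -1.90 ± 0.43 for Rgs9 and -1.86 ± 0.41 for Syndig1l. Choroid plexus markers summed to 1935 to 59295 on these arrays, against 3375 to 3933 in saline, with 0 of 7 called. The cortical excitatory neuron score was at least 0.76 on these arrays, with a median of 0.95, against -0.06 to 0.36 in saline, with a median of 0.19. Of these markers 1 of 10 was called higher. The oligodendrocyte score was -0.59 to -0.18, against -0.24 to 0.13 in saline, with 1 of 6 called lower. The part of these lists in the receptor differences was not tested.

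The authors' deposited log2 values gave 0 called members on day 1, with differences of the other sign for Gabrd (0.08), Grik4 (-0.01) and Grin2b (-0.01). In that table the column of methamphetamine day 1 replicate 3 lay within 0.001 of the mean of replicates 1 and 2 for 100% of 45281 probes, so the group holds 2 independent arrays there. No other of the 78 columns did so for more than 4.64% of probes, and in the intensity table the highest share was 0.735%. Without that column the deposited values gave 0 called members as well, an alternative chosen after seeing the data. Gria1 differed by 0.02, Grin2a by 0.05 and Grm4 by -0.05 in that fit (limma adjusted p = 0.988 for each).

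**Figure D1:**
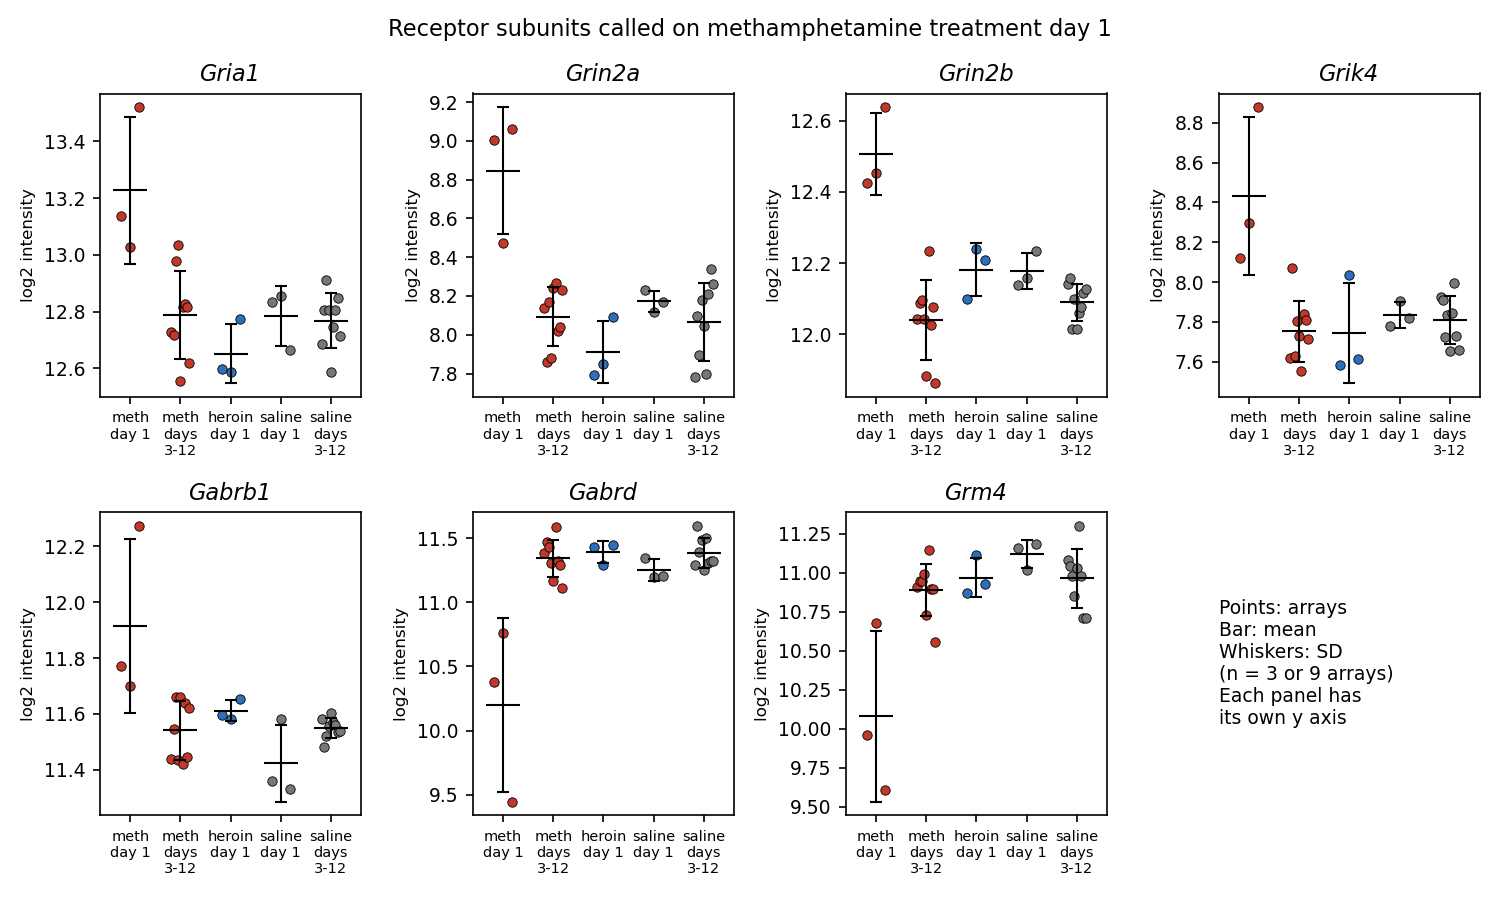
Log2 intensity (y axes, 1 panel per gene) of the 7 receptor subunits called on treatment day 1, in methamphetamine (meth) day 1, methamphetamine days 3 to 12, heroin day 1, saline day 1 and saline days 3 to 12. Points are arrays, bars means and whiskers SD (n = 3 arrays on day 1 and 9 on days 3 to 12). The 3 arrays labelled methamphetamine day 1 lie above all saline arrays of day 1 for Gria1, Grin2a, Grin2b, Grik4 and Gabrb1, and below them for Gabrd and Grm4, and the methamphetamine arrays of days 3 to 12 overlap the saline arrays of those days.

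**Figure D2:**
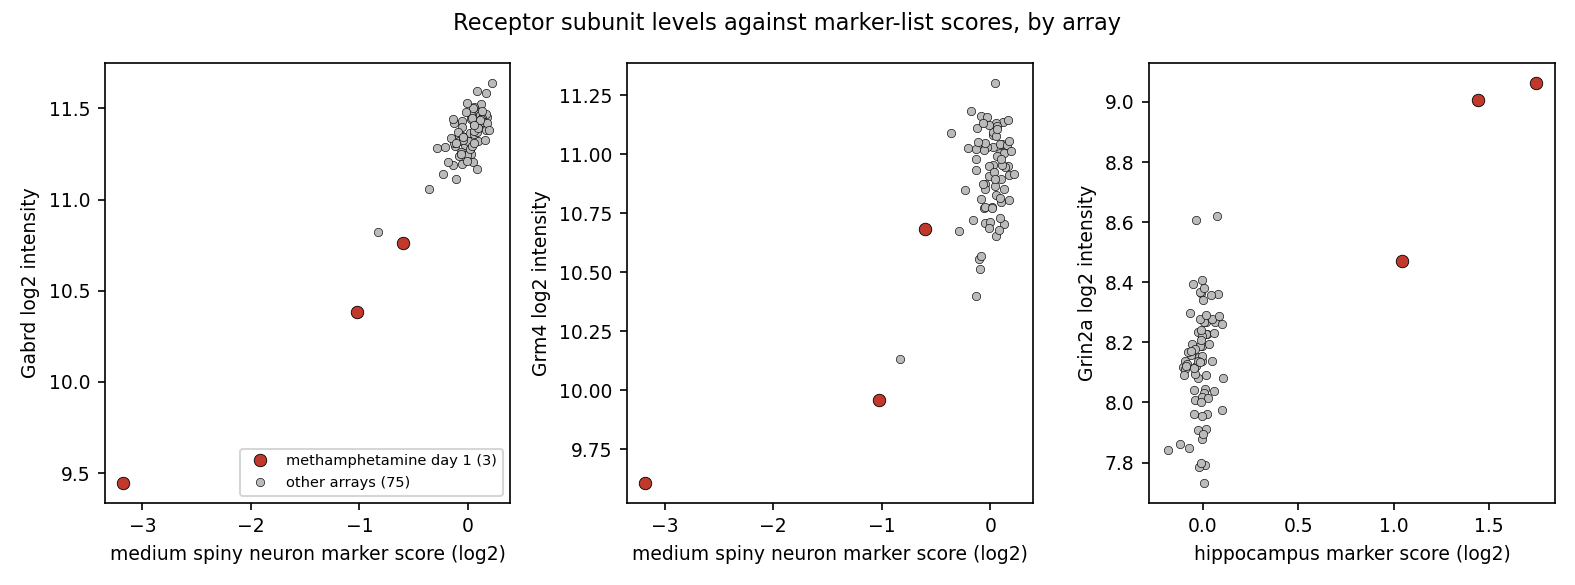
Log2 intensity of Gabrd and Grm4 (y axes) against the medium spiny neuron score and of Grin2a against the hippocampal score (x axes, log2 units), with 1 point per array. Red points are the 3 arrays labelled methamphetamine day 1, which have medium spiny neuron scores of -3.18, -1.02 and -0.60 and hippocampal scores of 1.04 to 1.75, and grey points are the other 75 arrays, whose hippocampal scores are -0.18 to 0.10.

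Heroin arrays of the same day gave a second set of control values. Against them Gria1 was 0.57 ± 0.09, Grik4 0.68 ± 0.15 and Grin2a 0.92 ± 0.13 higher on the arrays labelled methamphetamine day 1, and the differences were -1.14 ± 0.20 for Gabrd and -0.85 ± 0.17 for Grm4, with limma adjusted p of 2.43e-06 to 0.00236. That is 3 members higher and 2 lower, against 4% and 4.19% of all genes. Groups did not overlap for 12 of 25 members, against 24.7% of all genes. No slide held both groups here either. This comparison and the next share the arrays labelled methamphetamine day 1 with the one against saline. The methamphetamine effect on day 1 minus that on days 3, 6 and 12 was 0.49 ± 0.12 for Gria1, 0.91 ± 0.17 for Grin2a, 0.40 ± 0.11 for Grin2b and -0.98 ± 0.22 for Grm4, with limma adjusted p of 0.000719 to 0.0356. So 3 members had a larger and 1 a smaller value on day 1, against 1.67% and 1.43% of all genes. Grik4 (0.65 ± 0.20) and Gabrd (-0.81 ± 0.26) did not pass this test, with limma adjusted p of 0.0599 and 0.071. Without replicate 3 of the arrays labelled methamphetamine day 1, only Grin2a passed it, and without replicate 2, 7 members did.

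No receptor subunit passed the test in heroin treatment. Over days 1, 3, 6 and 12, with 12 arrays per group, 0 of 25 members were called, against 1.84% of all genes, and 4 had an unadjusted p under 0.05, against 13.5% of all genes. The 95% intervals of all 25 tested members lay within 0.25 log2 units of 0. Gria4 had the largest negative difference, -0.14 ± 0.04 (limma adjusted p = 0.0875). It ranged from 7.42 to 8.56 under heroin with a median of 8.04, against 7.58 to 8.69 in saline with a median of 8.21, and was called when arrays were weighted by their quality (limma adjusted p = 0.0282). The ranges of both groups nearly coincided, and the difference was negative on 8 of 11 slides that held both. The other Gria4 probe past the filter differed by -0.0018 ± 0.05 (limma adjusted p = 0.994). Grm4 differed by -0.12 ± 0.05, and Grik5 and Gabra3, the alpha 3 subunit of GABA-A receptors, by 0.12 ± 0.05 and 0.09 ± 0.06, with limma adjusted p of 0.282 to 0.59. The other probes of Grm4 and Grik5 differed by -0.0056 ± 0.06 and 0.21 ± 0.05 (limma adjusted p = 0.985 and 0.0311 over 19947 probes). That Grik5 probe was thus called, unlike the brighter one. Between the drugs on days 3, 6 and 12, 0 members differed (0.0728% of all genes did), with 1 member at an unadjusted p under 0.05 against 6.69% of all genes. The values furthest from 0 there were 0.12 ± 0.06 for Gabrg3, a gamma subunit of GABA-A receptors, and -0.13 ± 0.07 for Grin2a, followed by 0.09 ± 0.06 for Gria4 and -0.10 ± 0.05 for Grin3b. Grin3b passed the filter through heroin treatment day 12 and through no methamphetamine group of these days, so the filter favoured a negative sign.

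After treatment, too, no receptor subunit passed the test in the pooled days of either drug. Over the labelled days 13, 15, 18 and 24 of methamphetamine withdrawal 0 of 25 members were called, against 0.0324% of all genes, with 3 at an unadjusted p under 0.05 against 5.95% of all genes. All 25 intervals lay within 0.25 log2 units. Gria4 (0.10 ± 0.04) and Gabbr2 (-0.11 ± 0.04) were the furthest from 0 in each direction, with limma adjusted p of 0.81 and 0.701. Next to them stood Grik5 (0.09 ± 0.05) and Grik1 (-0.11 ± 0.05). In heroin withdrawal 0 members were called, against 0.138% of all genes, with 4 at an unadjusted p under 0.05 against 11.4% of all genes. Grik5 again had the largest difference, 0.22 ± 0.05 (limma adjusted p = 0.0877). Its levels were 10.17 to 11.15 in heroin with a median of 10.35, against 9.80 to 10.43 in saline with a median of 10.19. The highest of these heroin values came from labelled day 13 replicate 2, and without that array the difference was 0.14. Leaving out replicate 1 or replicate 3 of that group gave 0.26 and 0.25, with limma adjusted p of 0.0104 and 0.0285. The other Grik5 probe differed by 0.12 ± 0.05 in heroin withdrawal (limma adjusted p = 0.373). Grik2, a kainate subunit, differed by 0.11 ± 0.05, Grin2c by -0.13 ± 0.06 and Gabra3 by -0.13 ± 0.06.

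**Figure D3:**
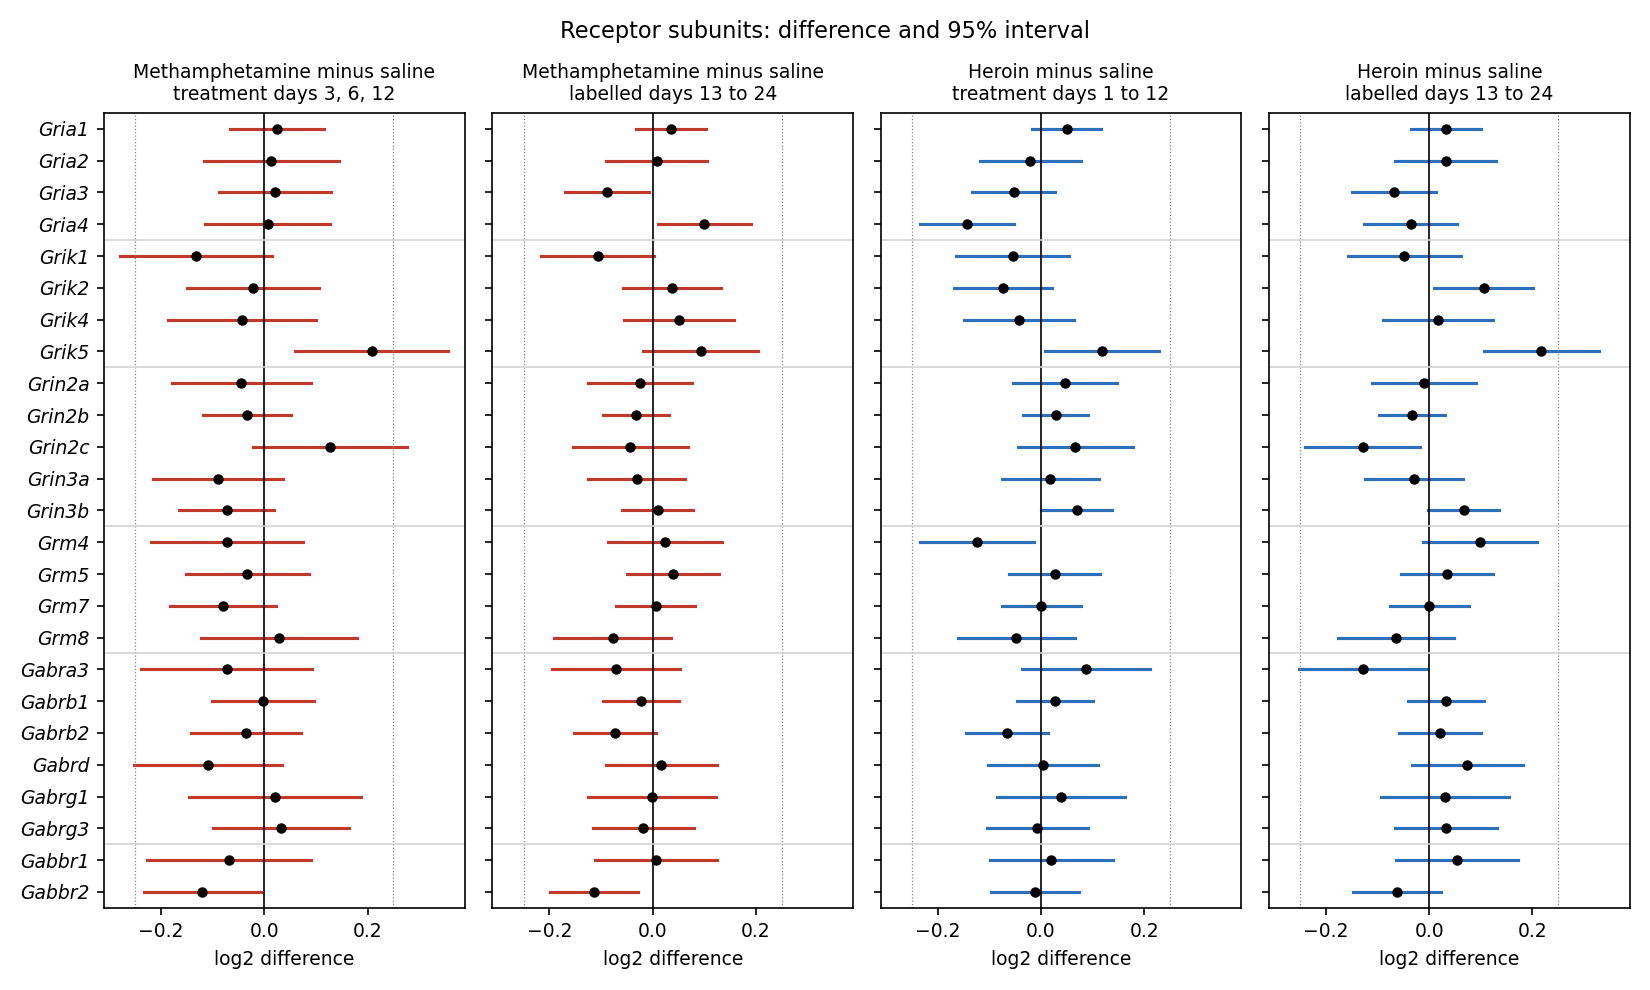
Fitted log2 difference (x axes, points) with its 95% interval (lines) for the 25 tested receptor subunits, grouped by family, in methamphetamine and heroin treatment and withdrawal, without the arrays labelled methamphetamine day 1. Dotted lines mark 0.25 log2 units on each side of 0. The intervals of all 25 members lie inside them in heroin treatment and methamphetamine withdrawal, and both drugs of a phase share their saline arrays.

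The drug effect was also compared between phases. Heroin treatment minus withdrawal gave 0 called members (0.154% of all genes), with 4 at an unadjusted p under 0.05 against 10.9% of all genes. The largest values were 0.22 ± 0.09 for Gabra3 and -0.22 ± 0.08 for Grm4, with limma adjusted p of 0.351 and 0.259. Grin2c (0.20 ± 0.08) and Grik2 (-0.18 ± 0.07) came next. The same difference for methamphetamine, without day 1, gave 0 called members (0.00809% of all genes), and 0 at an unadjusted p under 0.05 against 4.89% of all genes. Its extremes were 0.17 ± 0.09 for Grin2c and -0.13 ± 0.09 for Gabrd, then 0.12 ± 0.09 for Grik5 and -0.10 ± 0.09 for Grm4.

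Day by day, with 3 arrays per group and the arrays labelled methamphetamine day 1 left out, 15 comparisons of drug with saline gave 375 tests of members. A single one was called, against 0.191% of all tests, and 29 had an unadjusted p under 0.05, which is 7.73%, against 5.84% of all tests. The called one was Grm8, a metabotropic glutamate receptor of nerve endings, on heroin withdrawal day 15. Grm8 stood at 7.50, 7.58 and 7.64 in heroin, against 7.93, 8.17 and 7.84 in saline. It fell by 0.55 ± 0.14 (limma adjusted p = 0.0263), on a day when 1.6% of all genes were called lower. All heroin arrays were below all saline arrays on that day. Groups did not overlap there for 6 of 25 members, against 15.1% of all genes. No slide held arrays of both groups, so the fitted difference links them through arrays of other groups. The heroin mean was 7.57 ± 0.07, against a saline mean of 7.98 ± 0.17 (SD, n = 3), which was the highest mean of Grm8 among the 25 groups. Methamphetamine arrays of that day, set against the same saline arrays, had 7.72, 7.71 and 7.69, a difference of -0.35 ± 0.14 (limma adjusted p = 0.594).

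The Grm8 call was lost when any of 4 of the 6 arrays of its groups was left out. Without saline withdrawal day 15 replicate 2 the difference was -0.47 (limma adjusted p = 0.197), and without replicate 1 it was -0.54 (adjusted p = 0.0601). Without heroin withdrawal day 15 replicate 2 it was -0.51 (limma adjusted p = 0.142), and without replicate 1 it was -0.55 (adjusted p = 0.0929). It was also lost with the replicate number as a block (-0.47, limma adjusted p = 0.258), without a slide term (-0.41, limma adjusted p = 0.234) and with the deposited log2 values (-0.10, limma adjusted p = 0.142). Marker scores differed on this day too. The cortical excitatory neuron score was -0.71 to -0.16 on heroin arrays, against 0.04 to 0.88 on saline arrays. The thalamus score was 0.44 to 1.68 on heroin arrays, against -0.24 to 0.33 on saline arrays, and the choroid plexus score -0.05 to 0.01 against 1.00 to 1.22. With overlap, the medium spiny neuron score was -0.13 to 0.18 against -0.83 to -0.05, and the oligodendrocyte score -0.06 to 0.02 against -0.51 to 0.04. Saline replicate 2, which had the highest Grm8 of the 6 arrays, also had the -0.83 and the cortical 0.88. The part of these lists in the Grm8 difference was not tested.

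**Figure D4:**
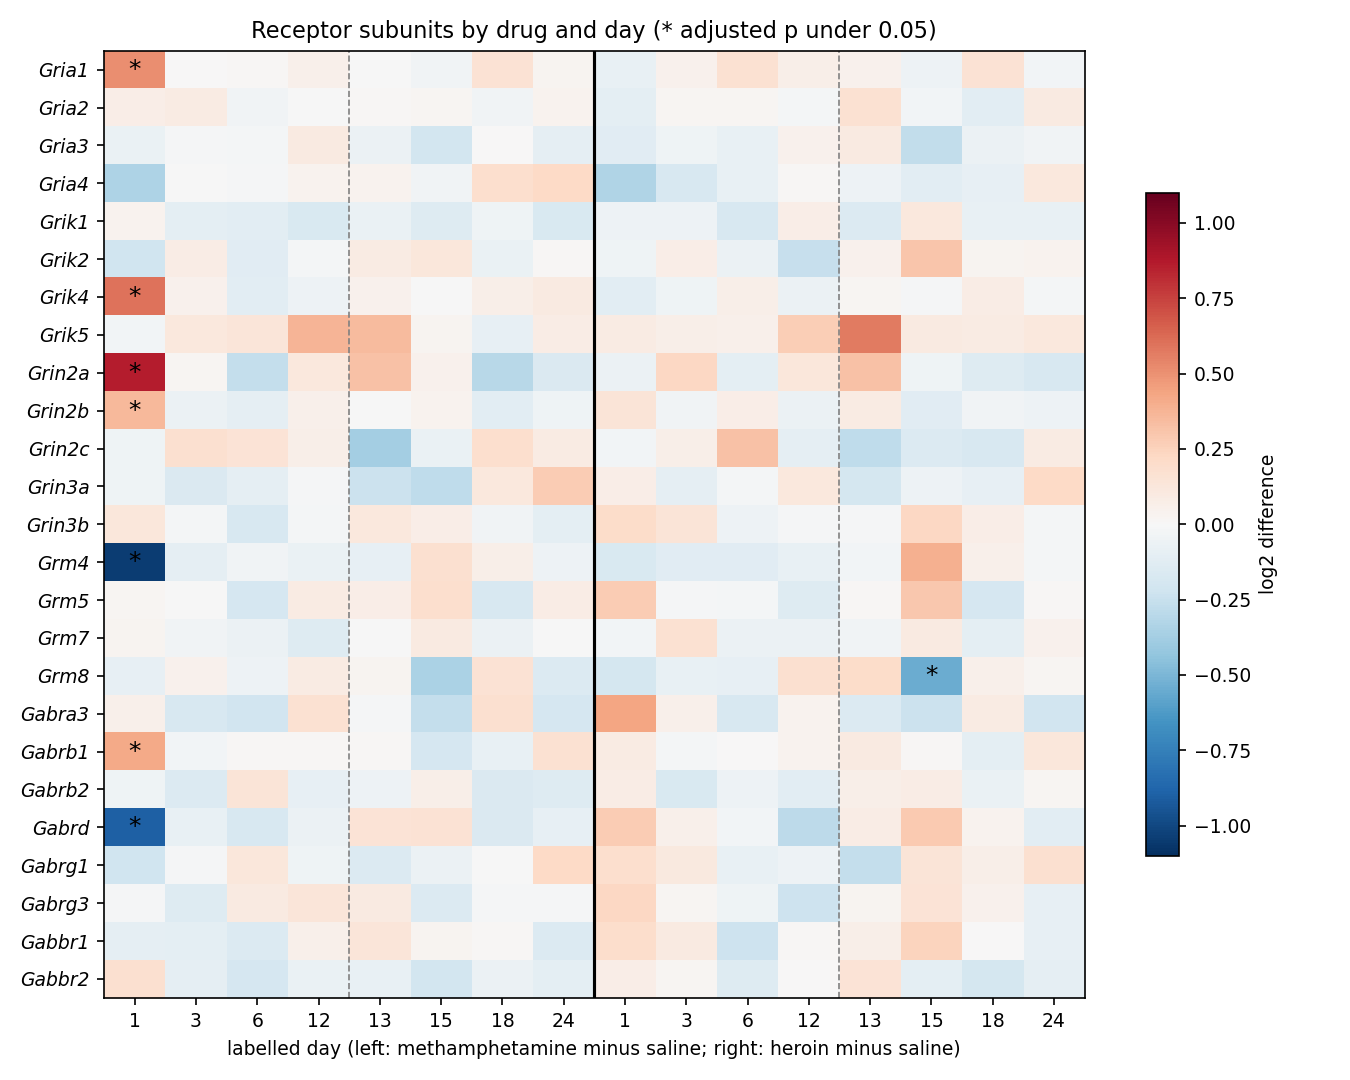
Fitted log2 difference of drug minus saline (colour) for the 25 tested receptor subunits (rows) on each labelled day (columns; methamphetamine left, heroin right; dashed lines separate treatment from withdrawal). Stars mark an adjusted p under 0.05, which are 7 subunits on the arrays labelled methamphetamine day 1 and Grm8 on heroin withdrawal day 15.

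**Figure D5:**
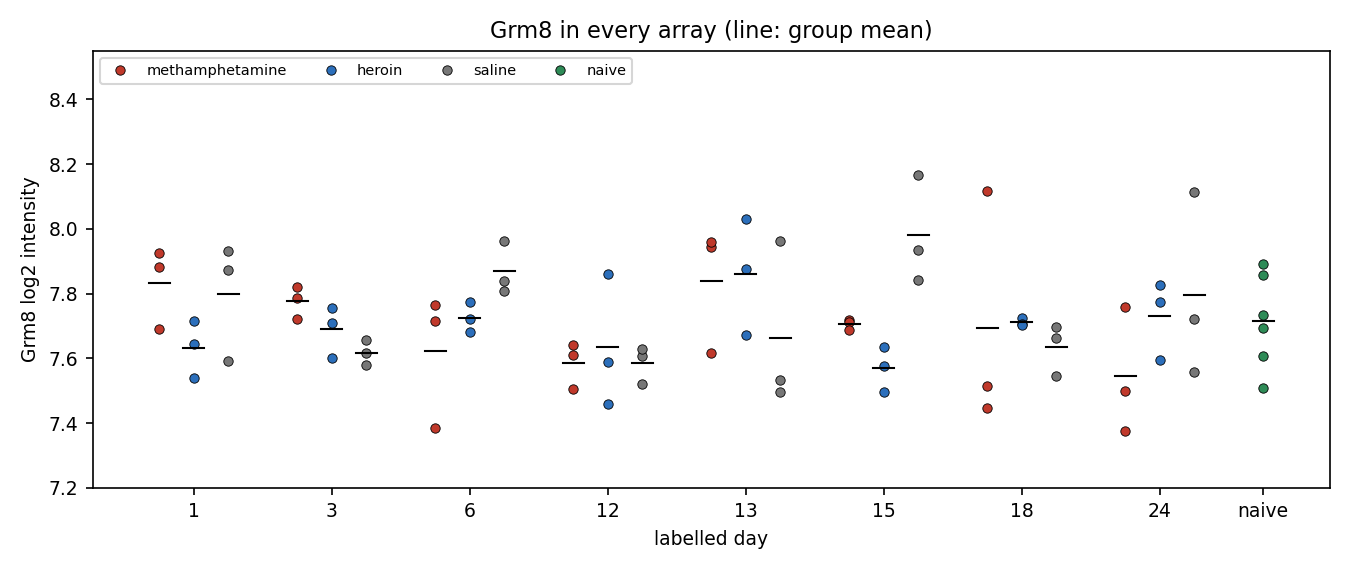
Log2 intensity of Grm8 (y axis) on every array by labelled day (x axis), with methamphetamine, heroin and saline side by side and naive arrays at the right; lines are group means (n = 3 arrays, 6 naive). On day 15 the heroin arrays lie at 7.50 to 7.64 and the saline arrays at 7.84 to 8.17.

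Saline and naive arrays were also compared, for injection and for the days that passed. Saline day 24 came after all 12 injection days, whereas day 1 was the first of them. Time, repeated injection and its end therefore cannot be told apart in that comparison. Saline treatment against naive gave 0 called members (0.0404% of all genes), with 1 at an unadjusted p under 0.05 against 7.6% of all genes. Grik2 differed by 0.13 ± 0.06, with 9.31 to 9.77 and a median of 9.62 in saline, against 9.33 to 9.68 and a median of 9.37 in naive mice (limma adjusted p = 0.631). The naive range lay inside the saline range. Gabra3 (0.09 ± 0.08), Grm5 (-0.08 ± 0.06) and Grin3a (-0.07 ± 0.06) were nearer to 0. Saline on labelled day 24 against saline on day 1 gave 0 called members (0.00809% of all genes), and 4 at an unadjusted p under 0.05 against 5.75% of all genes. No slide held both groups, so these fitted differences link them through arrays of other groups. Gria4 had the most negative value, -0.39 ± 0.12, and Gabra3 the most positive, 0.33 ± 0.16, with limma adjusted p of 0.562 and 0.854. Grin2c (-0.37 ± 0.15) and Grin3b (0.28 ± 0.09) followed, and Grin3b was the 1 member whose groups did not overlap, against 6.71% of all genes. With 3 arrays per group the intervals of 3 members lay within 0.25 log2 units in this comparison, so small differences were not detectable at this number of arrays.

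Genes that work with the receptors were counted from lists of 23 tested partners of excitatory receptors, 11 partners of inhibitory receptors, 19 genes of transmitter synthesis and transport, and 2 related receptor subunits. With day 1 included, 4 excitatory partners fell over the methamphetamine treatment days, Cacng4 (-0.30 ± 0.07), Neto2 (-0.24 ± 0.06), Gsg1l (-0.20 ± 0.05) and Homer1 (-0.19 ± 0.05). That is 4 of 23 lower, where 2.14% of all genes were called lower and 2.48% higher. Shisa7, a partner of GABA-A receptors, rose (0.16 ± 0.05), as did Slc1a2 (0.29 ± 0.04), while the transporter gene Slc6a12 (-0.45 ± 0.12) and the glycine receptor gene Glra2 (-0.19 ± 0.06) fell. In methamphetamine treatment without day 1, where 0.34% of all genes were called, 1 of these genes was, Slc1a2, which encodes the main glutamate transporter of astrocytes. It had 10.67 to 10.99 with a median of 10.85 in methamphetamine, against 10.36 to 10.73 with a median of 10.62 in saline, on 9 arrays each. All 9 methamphetamine arrays lay above the saline median, and the ranges overlapped. The difference was 0.27 ± 0.06 (limma adjusted p = 0.0217), and 0.21 ± 0.06 against heroin (adjusted p = 0.279). Its other probes differed by 0.15 ± 0.07 and -0.06 ± 0.07 and were not called (limma adjusted p of 0.543 and 0.883). The call was lost without saline day 6 replicate 1 (0.25), saline day 12 replicate 3 (0.22), methamphetamine day 3 replicate 2 (0.24) or methamphetamine day 12 replicate 3 (0.26). In heroin treatment, and in withdrawal from either drug, 0 genes of the 4 lists were called.

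On the arrays labelled methamphetamine day 1 the partner genes were called in both directions. Among excitatory partners 2 of 23 rose and 5 fell, where 3.36% of all genes were called higher and 3.87% lower, with a list median of -0.01 beside -0.01 over all genes. Camk2a, a kinase of excitatory synapses, rose by 0.83 ± 0.19, and Cacng5, an auxiliary subunit of AMPA receptors, fell by 1.18 ± 0.26. Nsf (0.36 ± 0.11) rose as well, and Cacng4 (-0.72 ± 0.19) was among those that fell. In synthesis and transport 1 of 19 rose and 4 fell, with a median of -0.12. Slc32a1, the vesicular GABA transporter, fell by 0.87 ± 0.18, and Gad2, a GABA-synthesizing enzyme, by 0.78 ± 0.21. Slc6a11 (-0.74 ± 0.22) and Gad1 (-0.55 ± 0.16) fell too, and Slc1a2 (0.37 ± 0.12) rose. Partners of inhibitory receptors had 0 of 11 called. Without replicate 3 of these arrays Camk2a differed by 0.55 and Slc32a1 by -0.49, with limma adjusted p of 0.132 and 0.0894.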

How the data were processed

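RNA from mouse striatum was hybridised to 78 Illumina BeadChip arrays on 13 slides. The labels name no slide lot. Lots 1 and 2 are 18 and 60 arrays split here by the first digits of the slide barcode. The authors deposited a table of non-normalized intensity values per probe, per the file headers, and this table was used for all main results. They also deposited a log2 table, whose values run to 21.22 where the highest log2 signal is 16.07, and whose processing is not given in the sources used here; it served as an alternative, although 1 of its 78 columns, methamphetamine day 1 replicate 3, is the mean of 2 others. The headers of the non-normalized table, used for all main results, number withdrawal days differently from the labels. Days are given here as in the labels.

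Intensities were quantile-normalized and log2-transformed. Of 45281 probes 34885 had 1 gene symbol, 18 had several and 10378 had none. The brightest probe stood for each of 19057 genes, and 12361 passed the filter on dim probes. limma 3.58.1 (R 4.3.3) was fitted with 25 group means and 13 slides to 78 arrays (41 residual degrees of freedom), or, for comparisons without the arrays labelled methamphetamine day 1, with 24 group means to 75 arrays (39). P-values were adjusted by Benjamini-Hochberg over all 12361 genes, with a threshold of 0.05. Because of the slide term, fitted differences differ from differences of group means. The fit was tested on simulated data.

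Members and lists were chosen with earlier results of these data known. The text names every called member and, for levels, all members. In each pooled comparison without calls it names the 2 members with the largest positive and the 2 with the largest negative difference. Of each pathway list it names up to 4 called genes in each direction, and of marker lists the 2 largest changes. Drd1, Drd2 and Gabbr1 among naive arrays are named outside that rule. Replicate numbers were not used as pairs in the main fit: 18 of 45 pairs of same-numbered arrays had correlated deviations over 0.1, with a median of 0.0358. In 2 of 15 comparisons all such pairs were over 0.1, and these correlations cannot settle whether the arrays were paired. Alternatives covered normalization, filter, slide and lot, probe, array weights, the deposited values and each array left out.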

Additional observations from a re-analysis of the deposited data

Results flagged for a closer look

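Among 6 naive arrays, 4 of 32 members had 1 array far from the other 5, where chance gives about 1 in 20 for normally distributed values. The share of all genes flagged in this way is not given here, so the count is no result about receptor genes. Gabbr1, the GABA-B subunit that binds the ligand, had a lowest value of 8.8391, with the others at 9.5343 to 9.7867. Gabrd had a highest value of 11.6389, Grik1 of 8.4486 and Grik4 of 7.9129, with the next values at 11.3706, 8.1323 and 7.8075.

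The methamphetamine effect on treatment day 1 differed from that on days 3, 6 and 12 by the limma test of the difference for Gria1 (0.4885), Grin2a (0.9134), Grin2b (0.3975) and Grm4 (-0.983), all on the log2 scale. These values rest on the 3 arrays with hippocampal markers, whose part was not tested.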

How the results depend on the processing

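The deposited log2 values gave 0 calls for methamphetamine over all treatment days, for day 1 against saline and against heroin, for day 1 minus days 3, 6 and 12, and for single days. With them day 1 differences changed sign for Gabrd (0.077), Grik4 (-0.0136), Grin2b (-0.0075), Cacng4 (0.0654), Neto2 (0.0372), Slc32a1 (0.0303) and Gad2 (0.0781), as did Gabrd against heroin (0.0034) and Grin2b in day 1 minus later days (-0.0023); the cause was not tested. Without the averaged column of methamphetamine day 1 replicate 3 they gave 0 calls in the 4 comparisons with day 1, and the reversed values were 0.0874 (Gabrd), -0.0148 (Grik4), -0.0116 (Grin2b), -0.0074 (Camk2a), 0.055 (Cacng4), 0.0422 (Neto2), 0.0253 (Slc32a1) and 0.0718 (Gad2) on day 1, 0.0126 for Gabrd against heroin and -0.0067 for Grin2b in day 1 minus later days. Without a slide term there were 1 call over all methamphetamine days, 7 in day 1 minus later days and 0 on single days. With slide as a random block there were 7 in day 1 minus later days and 2 on single days. Slides of lot 2 alone gave 1 over all methamphetamine days and 3 on single days. Only the groups compared gave 0 over all methamphetamine days and 0 in day 1 minus later days, where fewer arrays enter, and could not be fitted for day 1 against saline or heroin. Array weights and the second probe each gave 1 in heroin treatment. The replicate block gave 0 on single days, with Grm8 at -0.4666 (limma adjusted p = 0.258). With 1 array left out, calls were 2 to 4 over all methamphetamine days and 3 to 7 on day 1 (both lowest without day 1 replicate 3), 1 to 7 in day 1 minus later days, 4 to 6 against heroin on day 1, 0 to 1 in heroin withdrawal, and 0 to 5 on single days, highest without saline withdrawal day 15 replicate 3. With 3 arrays per group, single days resolve only large differences.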

Other observations

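AMPA subunits differed in how far they followed the slide. For Gria4 the SD within groups was 0.34 without a slide term and 0.11 with it, a ratio of 0.324, and slide means ran from 7.46 to 8.51. For Gria3 the ratio was 0.433, with slide means of 11.60 to 12.29. The median ratio was 0.774 over the members and 0.788 over all genes.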
